A study of Mus musculus with 2 samples.

Results

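The microRNA genes of the miR-302 cluster, which ends with Mir367, and of the miR-290 cluster are described here in the intestine of mouse embryos. Their 10 listed genes (Mir302a, Mir302b, Mir302c, Mir302d, Mir367, Mir291a, Mir292, Mir293, Mir294 and Mir295) were chosen by name, with no threshold on their counts, and all 10 were found among the 1973 gene rows of the deposited tables. The samples were 2 biological replicates of a single group, intestine of B6NCrl embryos at 14.5 days of development, with no allele or agent named. By their labels the samples are each 1 pup's intestine, yet the sex is listed as male and female pooled. Small RNA with inserts under 30 bases was sequenced, and no second condition is among the samples analysed here. What can be compared are therefore levels within the tissue and the 2 libraries with each other.

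Hairpin precursors are processed into microRNAs, which repress messenger RNAs that pair with their seed, the bases 2 to 8 from the 5′ end. Both clusters are transcribed as single primary transcripts that carry several hairpins and are known as the leading microRNAs of pluripotent cells. In the mouse the miR-290 cluster marks embryonic stem cells and early embryos and persists in germ cells, while the miR-302 cluster is known to follow it in epiblast and early germ layers. Both promote cell cycle progression in stem cells, and both decline as let-7 microRNAs accumulate during differentiation.

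Of the 8 members shown by their 3p arm, 6 have a stretch of 7 bases near the 5′ end in common. The 3p arms of 8 members are given 5′ to 3′ from RefSeq (GRCm38.p6), with the seed in capitals.
miR-302b-3p: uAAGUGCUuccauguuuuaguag
miR-302c-3p: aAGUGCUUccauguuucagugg
miR-302d-3p: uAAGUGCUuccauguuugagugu
miR-367-3p: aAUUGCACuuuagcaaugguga
miR-291a-3p: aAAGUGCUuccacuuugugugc
miR-294-3p: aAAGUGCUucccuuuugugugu
miR-295-3p: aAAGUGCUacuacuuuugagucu
miR-293-3p: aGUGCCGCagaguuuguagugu
The seed AAGUGCU was shared by Mir302b, Mir302d, Mir291a, Mir294 and Mir295, which lie on different chromosomes. The annotated miR-302c-3p starts 1 base later and holds the same 7 letters at its first base. By bases 2 to 8 Mir302c (AGUGCUU), Mir293 and Mir367 each had a seed of their own among the members shown. The 3p arms of Mir302a and Mir292 were not in the sequence table used here, so their 3p seeds were not looked at and both are missing from every count by 3p sequence. They are shown by their 5p arms, beside those of Mir302d and Mir293, again with the seed in capitals.
miR-302a-5p: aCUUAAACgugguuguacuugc
miR-302d-5p: aCUUUAACauggaggcacuugcu
miR-292a-5p: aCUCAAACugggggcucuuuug
miR-293-5p: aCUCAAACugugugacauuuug
A gene row of the tables adds the reads of both arms of a hairpin, so that no count below belongs to a given arm or seed.

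The 2 libraries held 15090126 counts on microRNA genes in replicate 1 and 3903472 in replicate 2. Levels are given as counts scaled to a library total of 1000000 (CPM), with 95% Wilson intervals for single libraries, and these intervals cover counting error only. Where a gene had no count, its level can still be as high as 3 counts would give, which is 0.199 CPM (replicate 1) or 0.769 CPM (replicate 2). Reads with several alignments, 26.5% and 26.6% of all reads in replicates 1 and 2, were assigned to no gene. Markers of the labelled tissue were all counted. The smooth muscle pair of Mir143 and Mir145a took 16.1 ± 1.55% of the counts, the miR-200 genes of epithelium 3.90 ± 0.556%, and Mir192, Mir194-1, Mir194-2 and Mir215 of intestinal epithelium 1.02 ± 0.168% (SD, n = 2), while the liver gene Mir122 had 45.4 ± 7.89 CPM.

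The pluripotency clusters were counted at a low level, and nearly all of their counts came from the miR-302 cluster. The 10 members together held 4645 counts in replicate 1 and 1213 in replicate 2, or 0.0308% (interval 0.0299 to 0.0317%) and 0.0311% (0.0294 to 0.0329%) of the library. The miR-302 cluster made up 94.8% and 95.1% of these counts in replicates 1 and 2. In replicate 1 its 5 genes had 292 CPM in all, against 16.0 CPM for the 5 miR-290 genes, and in replicate 2 they had 295 CPM, against 15.4 CPM. The first sum was 18.3 times the second in replicate 1 (exact interval 16.0 to 20.9) and 19.2 times in replicate 2 (14.8 to 25.3). The log2 ratio was 4.23 ± 0.05 (SD, n = 2) and compares counts of different hairpins, not molecules. It was 2.94 without Mir302a, Mir302b and Mir291a, whose hairpins share an identical stretch of 20 bases with another hairpin. How many of the reads with several alignments belong to these 3 genes was not tested.

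**Figure D1:**
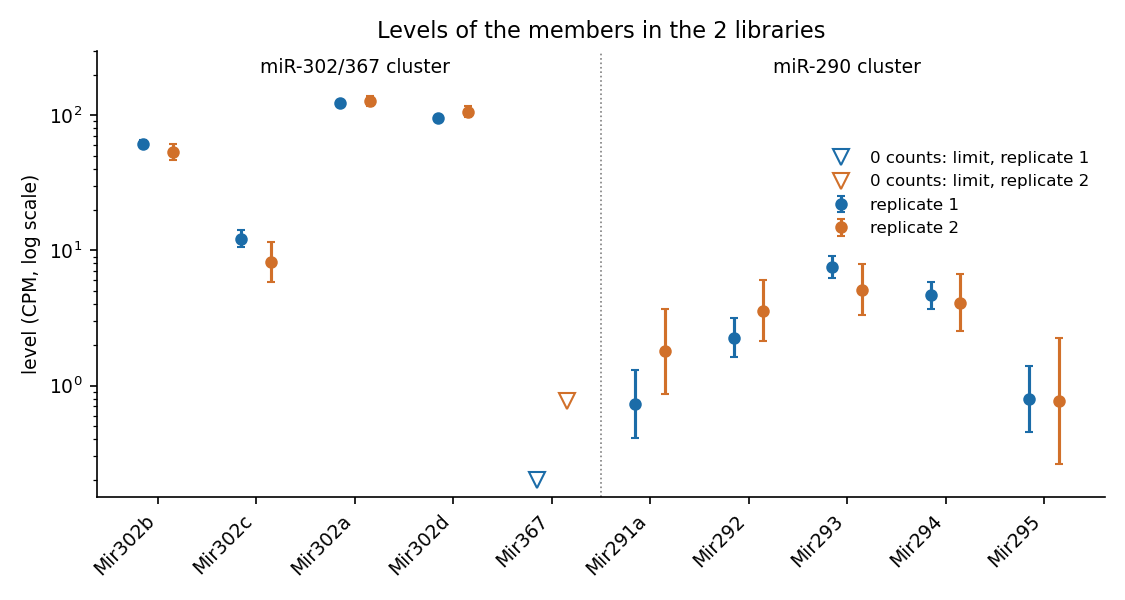
Level of each member in CPM on a log scale, in replicate 1 (blue) and replicate 2 (orange), with 95% Wilson intervals; open triangles mark the limit that 0 counts allows. Mir302a, Mir302d and Mir302b lie above 50 CPM in both libraries, every miR-290 gene lies below 10 CPM, and Mir367 has no count.

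The miR-302 genes lie on the plus strand at chr3:127545228-127545807 of GRCm38 (mm10), in an intron of Larp7, which is annotated on the opposite strand. From 5′ to 3′ they follow as Mir302b, Mir302c, Mir302a, Mir302d and Mir367, within 580 bases.

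Mir302a (ENSMUSG00000065552.1; chr3:127545496-127545564) was the most abundant member. It had 1863 counts in replicate 1 and 496 in replicate 2, or 123 CPM (118 to 129) and 127 CPM (116 to 139). It ranked 184 among the 1973 genes, between Mir592 at 127 ± 1.76 CPM and Mir362 at 125 ± 3.81 CPM. Mir874 and Mir495 stood above this group at 129 ± 0.567 and 132 ± 10.6 CPM, and Mir574 and Mir338 below it at 122 ± 2.95 and 120 ± 8.11 CPM. Mir592, Mir362, Mir495 and Mir338 differed from Mir302a by less than the larger SD of each pair, and Mir874 and Mir574 by more.

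Mir302d (ENSMUSG00000065447.1; chr3:127545624-127545689) followed at rank 195. It had 1431 counts in replicate 1 and 415 in replicate 2, or 94.8 CPM (90.0 to 99.9) and 106 CPM (96.6 to 117). Mir302a exceeded it 1.30-fold in replicate 1 and 1.20-fold in replicate 2, where their intervals met.

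Mir302b (ENSMUSG00000076252.1; chr3:127545228-127545301), the first hairpin of the cluster, had 926 and 210 counts in replicates 1 and 2. These are 61.4 CPM (57.5 to 65.4) and 53.8 CPM (47.0 to 61.6), lower than Mir302d in both libraries with no overlap of intervals. Mir302a and Mir302b share the 20-base stretch with each other. Reads that align to both were assigned to neither, so both levels can be too low.

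Mir302c (ENSMUSG00000065482.1; chr3:127545363-127545430) was the lowest counted gene of the cluster, although it lies between Mir302b and Mir302a. It had 184 counts in replicate 1 and 32 in replicate 2, or 12.2 CPM (10.6 to 14.1) and 8.20 CPM (5.81 to 11.6). Mir302a was 10.1-fold higher in replicate 1 and 15.5-fold higher in replicate 2. The longest stretch that the Mir302c hairpin shares with any other microRNA hairpin was 16 bases, against 17 for Mir302d.

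Mir367 (ENSMUSG00000065413.2; chr3:127545733-127545807), the last hairpin of the same cluster, had no count on either strand in either library. Its hairpin is set beside that of Mir302d, its neighbour, with the annotated mature arms in capitals.
Mir302d: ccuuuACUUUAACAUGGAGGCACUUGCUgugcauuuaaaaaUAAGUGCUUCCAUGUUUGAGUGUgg
Mir367: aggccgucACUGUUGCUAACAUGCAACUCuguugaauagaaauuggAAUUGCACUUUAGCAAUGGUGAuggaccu
The observed level of Mir302a was 621 times the limit of 3 counts for Mir367 in replicate 1 and 165 times in replicate 2. Mir302c, the lowest counted neighbour, stood at 61.3 times this limit in replicate 1 and 10.7 times in replicate 2. The counting error of Mir302a and Mir302c is not part of these ratios. The Mir367 hairpin shares at most 11 bases in a row with another microRNA hairpin, among them that of Mir32.

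A gene without counts beside an expressed neighbour was also seen elsewhere. Of the 117 genes with a neighbour of at least 100 CPM on the same strand within 1000 bases, 12 (10.3%), Mir367 included, had no count in either library. Of all 1973 gene rows, 1205 had none. Of these 12, 5 share no 20-base stretch with another hairpin: Mir367, Mir432, Mir453, Mir654 and Gm27320. The rest of the 12 do share one, so their reads may have gone uncounted for lack of a single place to align. The 10.3% covers both kinds of gene, and the share among genes without a shared stretch was not worked out. It therefore does not tell how common a gene like Mir367 is. The count of 12 among 117 was made after the value of Mir367 had been seen.

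**Figure D2:**
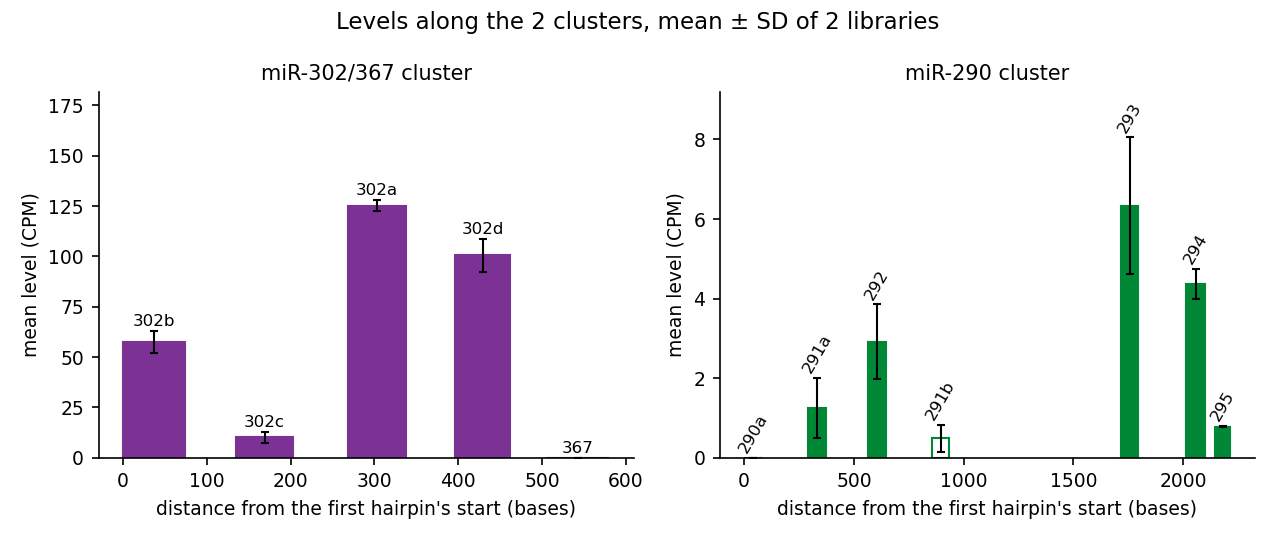
Mean level in CPM (bars, with SD of 2 libraries) against the distance in bases from the start of the first hairpin, for the miR-302 cluster (left, 5 members) and the miR-290 cluster (right, 5 members filled, Mir291b open and Mir290a without a count). Bar widths are the hairpin lengths, and the vertical scales differ: Mir302a reaches 125 CPM and Mir293 6.34 CPM.

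The miR-290 members lie on the plus strand at chr7:3218919-3220841, where exons and untranslated sequence of Nlrp12 are annotated on the opposite strand. Their levels were so low that the depth of replicate 2 limits most comparisons.

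Mir293 (ENSMUSG00000078035.1; chr7:3220343-3220422), whose 3p seed differs from those of the other members shown, was the most abundant of them. It had 114 counts in replicate 1 and 20 in replicate 2, or 7.55 CPM (6.29 to 9.07) and 5.12 CPM (3.32 to 7.91). Mir302c exceeded it 1.61-fold in replicate 1 and 1.60-fold in replicate 2, with overlapping intervals in replicate 2.

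Mir294 (ENSMUSG00000077903.1; chr7:3220641-3220724), a carrier of the AAGUGCU seed known for its cell cycle effects in mouse embryonic stem cells, had 70 and 16 counts in replicates 1 and 2. These are 4.64 CPM (3.67 to 5.86) and 4.10 CPM (2.52 to 6.66). Mir292 (ENSMUSG00000078041.1; chr7:3219189-3219270) had 34 and 14 counts, or 2.25 CPM (1.61 to 3.15) and 3.59 CPM (2.14 to 6.02). In replicate 1 the order Mir293, Mir294, Mir292 held with separate intervals. In replicate 2 the intervals of these 3 genes overlapped.

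Mir291a (ENSMUSG00000078008.1; chr7:3218919-3219000) had 11 counts in replicate 1 and 7 in replicate 2, and Mir295 (ENSMUSG00000077886.1; chr7:3220773-3220841) had 12 and 3. Both carry the AAGUGCU seed. They stood at 0.729 and 1.79 CPM (Mir291a) and 0.795 and 0.769 CPM (Mir295) in replicates 1 and 2, and the intervals of the 2 genes overlapped in both libraries. The other rows of the cluster, outside the list, were Mir291b with 11 counts in replicate 1 and 1 in replicate 2 and Mir290a with none. Mir291a and Mir291b share 20 bases. No member had a count on its opposite strand.

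**Figure D3:**
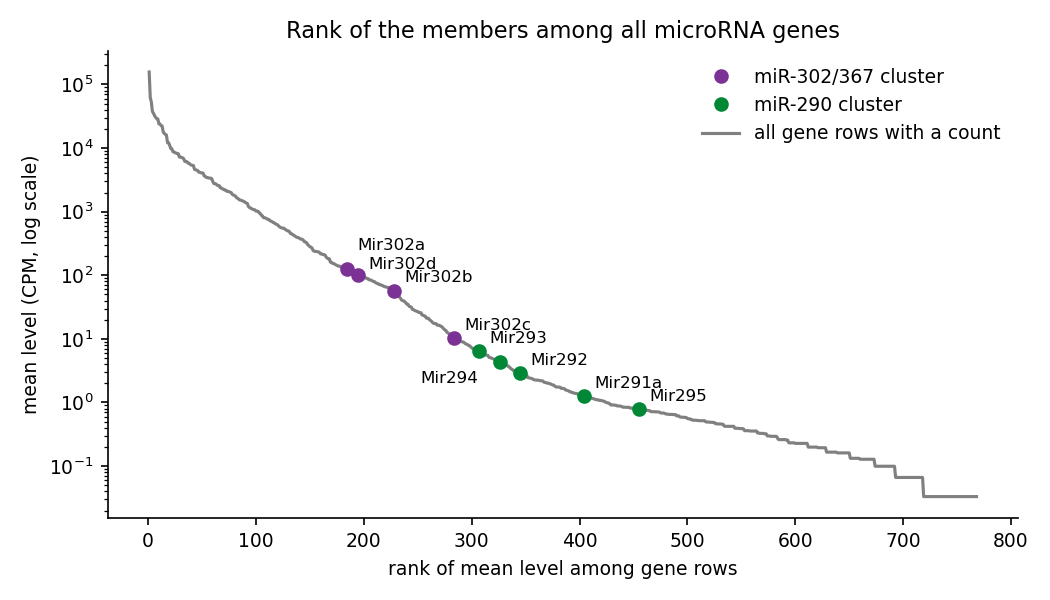
Mean level in CPM on a log scale against rank among gene rows, with the miR-302 cluster genes (purple) and miR-290 genes (green) on the curve of all rows with a count (grey). The counted members run from Mir302a at rank 184 to Mir295 at rank 455.

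The order of the genes within the miR-302 cluster was the same in both libraries, and for each member the interval of its share of its cluster in replicate 1 overlapped that in replicate 2. Mir302a made up 42.3% of its cluster's counts in replicate 1 (40.9 to 43.8%) and 43.0% in replicate 2 (40.2 to 45.9%). Mir302d made up 32.5% (31.1 to 33.9%) and 36.0% (33.3 to 38.8%), Mir302b 21.0% (19.8 to 22.3%) and 18.2% (16.1 to 20.5%), and Mir302c 4.18% (3.63 to 4.81%) and 2.78% (1.97 to 3.89%). In the miR-290 cluster Mir293 held 47.3% (41.1 to 53.6%) of the counts in replicate 1 and 33.3% (22.7 to 45.9%) in replicate 2.

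Whether a member's level differed between the libraries was tested on the whole table, with a two-sided exact binomial test of each gene's counts against the ratio of the totals. The 363 genes with at least 10 counts in both libraries were tested, 7 of them members; Mir367, Mir291a and Mir295 were not tested. This compares these 2 libraries and nothing beyond them. At an adjusted p under 0.05 (Benjamini-Hochberg over all 363), 159 genes or 43.8% differed, and 0 of the 7 members did. Members are low in count, and of the 173 other tested genes with no more counts than Mir302a 33 differed (19.1%). At an unadjusted p under 0.05 in the exact test there were 2 members, Mir302c and Mir302d.

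The members' largest tested differences were those of Mir292, Mir302c and Mir293. Mir302c had 1.49 times the level in replicate 1 that it had in replicate 2 (log2 of replicate 1 over replicate 2 of 0.57, counting interval 0.03 to 1.16; exact binomial test, adjusted p = 0.0769). Mir293 had a log2 difference of 0.56 (-0.13 to 1.32) and Mir292 of -0.67 (-1.61 to 0.34). Mir302d differed by -0.16 (-0.32 to -0.0038; exact test, adjusted p = 0.0858), Mir302b by 0.19 (-0.03 to 0.41), Mir294 by 0.18 (-0.62 to 1.06) and Mir302a by -0.04 (-0.19 to 0.10). The median absolute difference was 0.19 over the 7 tested members and 0.15 over all 363 tested genes. With library totals scaled by TMM or by DESeq2 size factors, Mir302b and Mir302c passed the threshold (smallest adjusted p = 0.0339 and 0.0281 by the exact test), so that the absence of calls depends on the scaling.

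**Figure D4:**
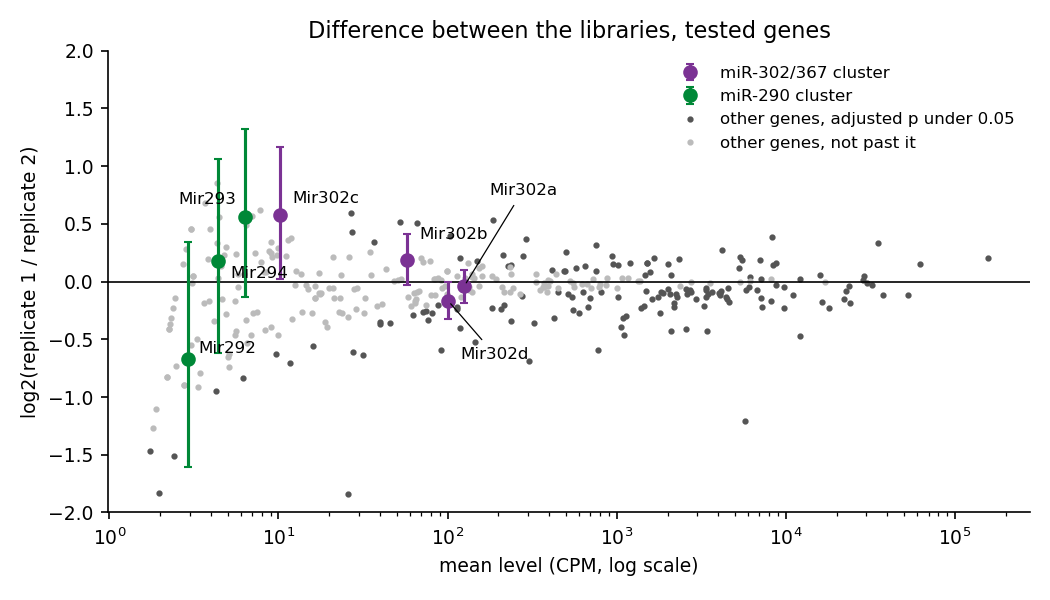
Log2 of replicate 1 over replicate 2 against mean CPM (log scale) for tested genes, with the 7 tested members in purple (miR-302 cluster) and green (miR-290) with 95% counting intervals, and other genes in dark grey (adjusted p under 0.05) or light grey; 1 other gene lies outside the plotted range. The intervals of Mir302a, Mir302b, Mir292, Mir293 and Mir294 include 0.

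The letters of the common seed also occur in abundant microRNAs outside the clusters. AAGUGCU was found within the first 9 bases of 14 of the 1738 mature RNAs in the RefSeq table (0.806%). Of these, 6 belong to the 8 members whose 3p arm was searched and 8 to other genes, namely the miR-17 group and the genes Mir105 and Mir6383. In the miR-17 group, which lies in the Mir17 cluster and its paralogues and is known for promoting proliferation, the 7 letters start at base 3 instead of base 2. The lines below put them in capitals.
miR-302d-3p: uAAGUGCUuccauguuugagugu
miR-294-3p: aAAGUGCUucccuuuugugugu
miR-17-5p: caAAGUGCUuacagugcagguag
miR-20a-5p: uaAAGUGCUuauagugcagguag
miR-93-5p: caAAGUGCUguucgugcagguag
miR-106b-5p: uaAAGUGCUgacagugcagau
The 6 members found with these letters, without Mir302a and Mir292, made up 0.0175% of the counts in either library, against 5.98% for the other genes in replicate 1 and 5.91% in replicate 2. The members' part of the counts of all 14 genes was 0.291% (0.280 to 0.302%) in replicate 1 and 0.295% (0.274 to 0.318%) in replicate 2. The intervals cover counting error and not the 2 arms left unsearched. With all counts of Mir302a and Mir292 added to the members, an alternative chosen after seeing the data, the members held 0.0300% and 0.0306% of all counts in replicates 1 and 2, and their part averaged 0.507%, against 0.293% without these genes.

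Mir17 led that group at 30357 ± 246 CPM, followed by Mir20a at 12149 ± 157 CPM, Mir93 at 8712 ± 135 CPM, Mir106b at 7035 ± 643 CPM and Mir106a at 721 ± 8.60 CPM. Even Mir20b, the lowest counted gene of the group at 487 ± 22.4 CPM, stood above Mir302a in both libraries. Mir105 and Mir6383 had no count. A match of letters is a description of sequence, and reads were not assigned to arms.

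**Figure D5:**
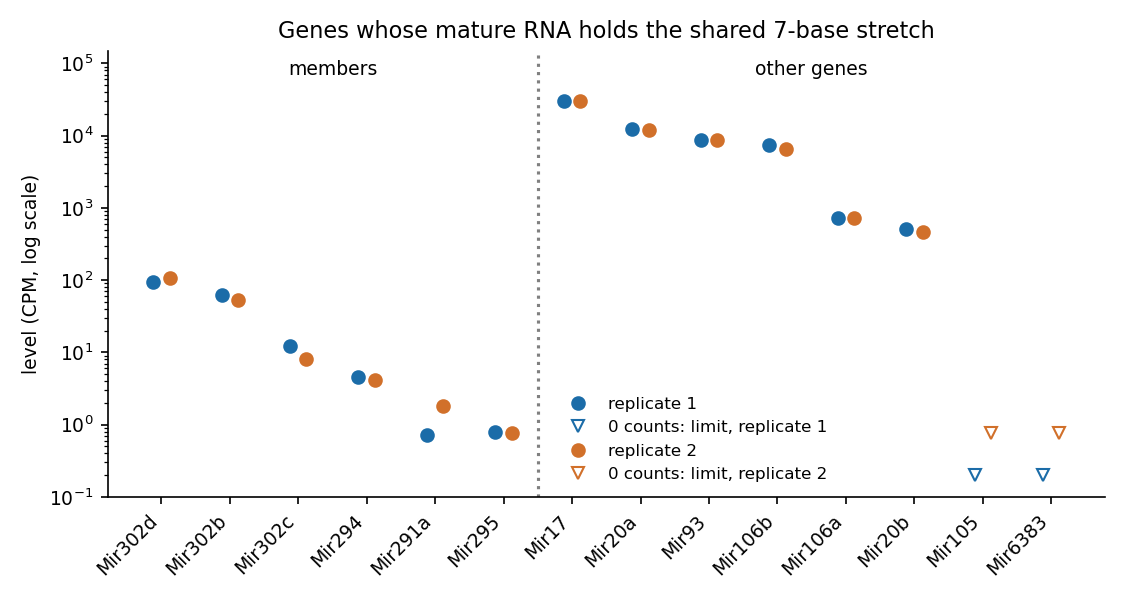
Level in CPM (log scale) in replicate 1 (blue) and replicate 2 (orange) of the 14 genes whose mature RNA holds the shared 7-base stretch within its first 9 bases, 6 members on the left and 8 other genes on the right (the 3p arms of Mir302a and Mir292 were not searched); open triangles mark the limit that 0 counts allows. The 6 counted genes on the right all lie above the 6 members.

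The seed of Mir367 likewise belongs to expressed genes elsewhere. AUUGCAC is the seed of miR-25-3p, miR-32-5p, miR-92a-3p, miR-92b-3p and miR-363-3p, of which miR-363-3p and miR-92a-3p, from the most abundant gene of the group, are set beside miR-367-3p.
miR-367-3p: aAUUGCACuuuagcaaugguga
miR-363-3p: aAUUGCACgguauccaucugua
miR-92a-3p: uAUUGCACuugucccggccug
While Mir367 had no count, Mir92-1 had 3450 ± 189 CPM, Mir25 1012 ± 25.4 CPM, Mir363 527 ± 1.56 CPM, Mir32 235 ± 14.3 CPM, Mir92-2 182 ± 20.2 CPM and Mir92b 84.7 ± 0.985 CPM. Mir92-1 and Mir92-2 carry the same mature RNA. Reads that align to both were assigned to neither, so their levels and the sum of the group can be too low. The summed counts of all members stood at a log2 ratio of -4.15 ± 0.05 (SD, n = 2) to the sum of these 6 genes. Of the members with a known 3p seed, Mir367 alone has this seed, and it added no count, so the ratio compares levels of genes with different seeds.

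Summed over each list, genes known to oppose the pluripotent state were far more abundant than the clusters. This is not particular to such genes, since the miR-17 group held 5.98% and 5.91% of the counts in replicates 1 and 2. The members' 0.0308% and 0.0311% of the counts in replicates 1 and 2 stood against 7.26% and 7.90% for let-7. These genes repress growth genes as cells differentiate. The let-7 list holds 12 genes, Mir98 among them, and 10 had a row. The log2 ratio of the members to let-7 was -7.94 ± 0.08 (SD, n = 2). Without genes that share sequence in either list the ratio was -9.21. Of the 4 genes reported to repress pluripotency factors, Mir296 had 4441 ± 284 CPM, Mir145a 3582 ± 21.6 CPM and Mir134 1462 ± 39.5 CPM. Each of these stood above every member, while Mir470 had 3 counts in replicate 1 and none in replicate 2. Mir145a is also a gene of the smooth muscle pair given above. Between replicates 1 and 2 the exact test called 8 of 10 let-7 genes, all lower in replicate 1, 2 of the 6 genes with the Mir367 seed, both lower, and 5 of the 6 genes of the miR-17 group, 3 higher and 2 lower. The test also called the 4 genes of intestinal epithelium, the 5 miR-200 genes and the liver gene Mir122, all lower in replicate 1. Of the smooth muscle pair it called Mir143, higher in replicate 1, and not Mir145a. Of all tested genes 14.0% passed as higher in replicate 1 and 29.8% as lower. Whether the make-up of the 2 samples differed was not tested.

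Markers of gonad, germ line and trophoblast were looked at as well. Of 13 microRNAs listed for gonad and germ line, 11 had a row under the listed name. Of these 11, 9 had a count, and none had 10 counts in both libraries. The listed Mir743a and Mir465a have rows as Mir743 and Mir465, which were left out of these counts and of the sums below. Mir743 had 4 counts in replicate 1 and 1 in replicate 2, and Mir465 had none. In replicate 1 the members' sum was 308 CPM and that of the 11 genes 3.18 CPM. In replicate 2 the sums were 311 CPM for the members and 2.56 CPM for the 11 genes. Whether the listed genes mark gonad or germ cells at 14.5 days of development was not tested. Mir202 had 2 counts in replicate 1 and none in replicate 2, and Mir741 and Mir881 had the most, with 20 and 14 counts in replicate 1 and 6 and 0 in replicate 2. The microRNAs within Sfmbt2, known from trophoblast, made up 0.388% of the counts in replicate 1 and 0.358% in replicate 2, but 105 of their 107 genes share sequence. In bulk tissue few cells at a high level and many cells at a low level cannot be told apart, and the part of other cell types in the members' counts was not tested.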

How the data were processed

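Counts of reads per gene were deposited for each library, with columns read from the values as both strands, sense and antisense. The notes deposited with the tables name mm10 and GENCODE M4 as the genome and annotation; the aligner and counting program are not given in the sources used here. Rows for unaligned, multiply aligned and unassigned reads entered no total. Unaligned reads made up 12.4% and 13.8% of reads in replicates 1 and 2.

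Sense counts were divided by their sum over 1973 gene rows. Names and positions came from GENCODE M21 (GRCm38), which named 1894 rows. Of the rows, 916 matched a RefSeq mature sequence by symbol. Genes with at least 10 counts in both libraries were tested with the exact binomial test (scipy 1.17.1), with Benjamini-Hochberg adjustment (statsmodels 0.14.6). The test was run on simulated counts that varied by counting error only, with the totals of the unchanged genes known. It therefore cannot tell how the test performs with the variation and scaling of these libraries. edgeR 4.0.16 (TMM) and DESeq2 1.42.0 gave other totals; other denominators, count minimums, a chi-square test, thinned counts, a left-out library and genes without shared sequence were also tried. With 1 group of 2 samples a quasi-likelihood test has no contrast. The labels call the samples biological replicates, and collection on days 17 and 15 of the month cannot be told apart from replicate 1 and 2. Named besides the members are other rows of the clusters and up to 5 leading genes of each list or seed group. Also named are the 3 neighbours in rank on either side of Mir302a. Mir20b, Mir92b, Mir105, Mir6383, Mir202, Mir470, Mir465, Mir741, Mir743, Mir881 and the genes without counts beside neighbours were named after their values were seen. Members and lists were chosen with earlier results of these data known.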

Additional observations from a re-analysis of the deposited data

How the results depend on the processing

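The members' summed share, 0.0309% on average, changed by less than its SD with TMM or DESeq2 totals. The same held with Mir290a and Mir291b added, an alternative chosen after seeing the data. Leaving out either of the 2 replicates only returns the value of the other (0.0308 to 0.0311%). Its change is below the SD by construction, so it is no check of this result. With all reads as the denominator the shares were 0.0175% for the members, 0.0166% for the miR-302 cluster and 0.000885% for the miR-290 cluster, and with both strands counted 0.0300%, 0.0285% and 0.00152%, since the denominators grow. Without genes that share 20 bases they were 0.0125%, 0.0111% and 0.00144%, and the log2 ratios were 2.94 for the clusters, -3.89 for all members to the 6 genes with the seed of Mir367, which itself added no count, and -9.21 to let-7. With Mir290a and Mir291b the miR-290 share was 0.00162%. Counting in Mir302a and Mir292, also chosen after seeing the data, moved the members' part of the genes with the shared 7 letters to 0.507% on average, against 0.293% without them. The cluster log2 ratios of the single libraries were 4.19 and 4.26. Of the 7 tested members, 0 differed between the libraries. With TMM totals 2 of the 7 did, and with DESeq2 totals 2 as well, Mir302b and Mir302c with either. With replicate 1 thinned to the total of replicate 2, 6 members were tested and 1, Mir302c, differed. The cause was not tested. With all reads as the denominator, both strands, other count minimums or a chi-square test the number was 0. Without a filter on low counts 9 members were tested. No paired analysis was possible because the series holds 1 group. At the depth of replicate 2 a gene under 0.769 CPM may have no count, which limits Mir295, Mir291a and Mir367.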
